A study of Mus musculus with 4 samples.

Results

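Autophagy and lysosome genes were followed as a set of 41 genes chosen by name, of 36983 genes or unnamed targets on the array. Of these, 20 belong to the autophagy machinery, 18 encode lysosomal enzymes or membrane proteins, and 3 encode the MiT/TFE transcription factors TFEB, TFE3 and MITF. All 41 had a named probe, and 39 were bright enough to be tested. The rule uses gene names alone, and it was set with earlier results of these data known.

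The samples were cell lines grown out of mouse fetal liver after transformation with the p185 form of BCR-ABL1, the fusion kinase of acute lymphoblastic leukaemia. R/R lines were Cdk4 R24C/R24C; Cdk6 R31C/R31C, that is, they carried knock-in substitutions in both alleles of the cyclin D-dependent kinases that are known to block binding of INK4 inhibitors. Wild-type (WT) lines had the unaltered kinases, and all lines carried the BCR-ABL1 transgene on a mixed C57BL/6J x CD-1 background. RNA came from asynchronous cultures, with integrity numbers of 9.8 to 10 per the labels. R/R clones 1, 2 and 3 (each a single clone, in Cy5) were hybridised against a WT pool (Cy3) on 3 arrays, and an R/R pool (Cy3) against the WT pool (Cy5) on the remaining one. The labels do not say what the pools held, and clones 1 and 2 have identifiers with a common stem. One WT pool served all 4 arrays, so the tests hold the spread among R/R clones and none among WT lines. Whether the clones came from separate animals is not stated, and the p-values measure the spread between these samples alone.

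Every ratio below is a log2 ratio of R/R over WT, given for clones 1, 2 and 3 and the pool in that order, with the sign of the dye-swapped pool array turned. The fitted value gives the clone mean and the pool the same weight, and its standard error (SE) comes from limma. Only the pool array had its dyes swapped, so a difference between pool and clones cannot be told apart from a dye effect. A gene is called at a Benjamini-Hochberg adjusted p under 0.05 over the 20045 genes tested. Of these, 12296 had a symbol, and the rest were counted under the systematic name of their probe. Shares of all genes below include these unnamed targets, while every member is a named gene. Signal well above background was found in 42.8% to 53.4% of spots in the R/R channel and in 48.2% to 50.3% in the WT channel. The number of arrays limits the precision.

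Macroautophagy encloses cytoplasm in a double membrane, the autophagosome, and delivers it to the lysosome, where acid hydrolases break it down. The ULK1 kinase complex and the Beclin 1 lipid kinase complex start the membrane, ubiquitin-like conjugation systems attach ATG8 proteins to it, and receptors such as p62 bring in cargo. TFEB and its relatives are known to switch on many lysosomal and autophagy genes through short CACGTG-containing elements, and mTORC1 at the lysosomal surface holds them in the cytoplasm when nutrients are plentiful. Lymphocyte precursors, like most cells, use the pathway to turn over organelles and proteins.

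None of the 39 tested genes was called in either direction, while 0.524% of all tested genes were (105 of 20045, limma). At an unadjusted limma p under 0.05 there were 9 of 39 (23.1%), against 15.4% of all genes. Of these 9, Gabarap and Lamp1 were higher in R/R, and Atg13, Atg14, Atg7, Atg12, Hexa, Glb1 and Neu1 were lower. One sign on all 4 arrays was seen for 13 of 39 genes (33.3%), against 30.8% of all genes, a share near that background. R/R and WT signals did not overlap over the 4 arrays for 11 of 39 genes (28.2%), against 18.8% of all genes. Most fitted ratios were small: 25 of 39 (64.1%) lay within 0.25 of 0, compared with 78.1% of all genes. The median over the 39 genes was -0.06 with 27 below 0, beside a median of -0.02 over all genes with 10740 of 20045 below 0. The plot of ratios by array shows these values gene by gene.

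**Figure D1:**
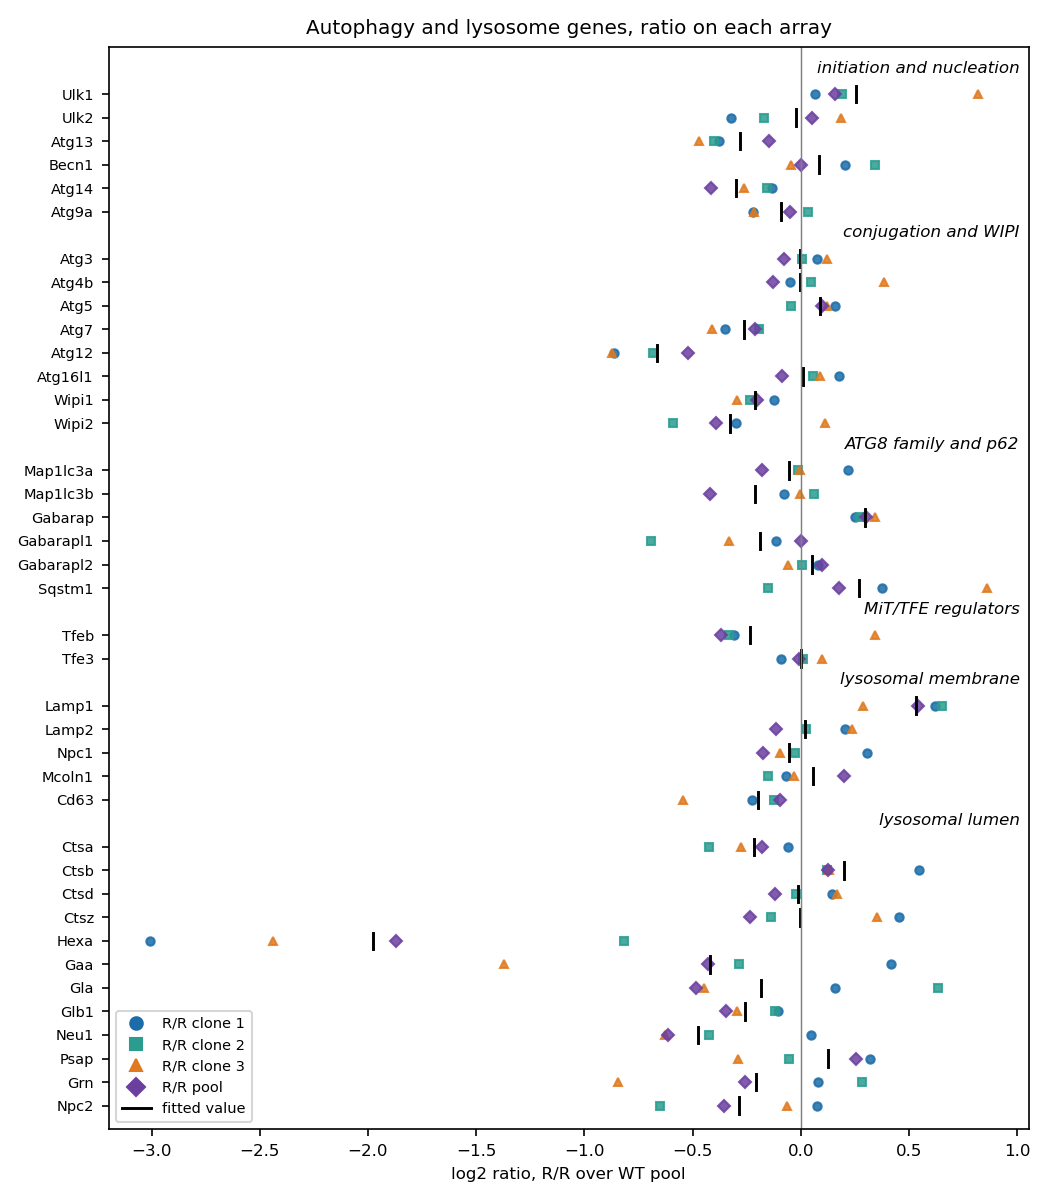
Log2 ratio of R/R over WT (horizontal axis) for the 39 tested genes, grouped by role, with 1 symbol per array and a black bar at the fitted value. Most symbols lie near 0. Hexa stands apart on the left, from -3.01 in clone 1 to -0.82 in clone 2, and Lamp1 lies right of 0 on all 4 arrays.

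The genes that start an autophagosome gave small ratios with mixed signs. The 6 genes of initiation and nucleation had a median fitted ratio of -0.06, with 2 above 0 and 4 below. Atg13, the adaptor subunit of the ULK1 complex, had ratios of -0.38, -0.40, -0.47 and -0.15. R/R signals of Atg13 were below every WT signal, and the fitted ratio was -0.28 ± 0.09 (SE, adjusted p = 0.230). Atg14, which directs the Beclin 1 complex to the site of autophagosome formation, had -0.14, -0.16, -0.26 and -0.42. It was again below WT on every array, with a fitted ratio of -0.30 ± 0.09 (adjusted p = 0.216). Ulk1, the initiating kinase, had 0.06, 0.19, 0.82 and 0.16. Clone 3 alone lay far above 0, and the fitted ratio of 0.26 ± 0.16 was not called (adjusted p = 0.494). The related kinase gene Ulk2 took both signs, from -0.32 in clone 1 to 0.19 in clone 3. Becn1, which encodes Beclin 1, was fitted at 0.085 and Atg9a, a scramblase carried on the vesicles that seed the membrane, at -0.092, and both took both signs.

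Within the conjugation systems Atg12 gave the smallest p of all 39 genes. Its protein is the ubiquitin-like modifier that is joined to ATG5. Normalized log2 signals of Atg12 were 9.21, 9.35, 9.21 and 9.40 in R/R, against 10.07, 10.03, 10.09 and 9.92 in the WT pool on the same arrays. All 4 R/R signals were below all 4 WT signals, and the ratios were -0.86, -0.68, -0.87 and -0.52. The fitted ratio was -0.66 ± 0.09 (95% interval -0.90 to -0.43, 1.58-fold lower in R/R), with an adjusted p of 0.067 that missed the threshold. A second, dimmer Atg12 probe gave -0.31, -0.40, 0.02 and -0.04, with a fitted ratio of -0.13. The probes of this gene thus differed by 0.53, and the lower level in R/R rests on the brighter one. Atg12 was called with the clones alone (-0.81, adjusted p = 0.041), with scaling between arrays (-0.68, adjusted p = 0.048) and with no dye term (-0.73, adjusted p = 0.0070); over all alternatives the adjusted p ran from 0.0070 to 0.376.

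Atg7, the E1-like enzyme of both conjugation systems, had ratios of -0.35, -0.20, -0.41 and -0.21 and a fitted ratio of -0.26 ± 0.09 (adjusted p = 0.275). A second, dimmer Atg7 probe (mean log2 signal 6.92, beside 8.68) was fitted at 0.074, so the sign depended on the probe. Wipi1 and Wipi2 encode proteins that read phosphatidylinositol 3-phosphate on the growing membrane. Wipi1 had -0.12, -0.24, -0.30 and -0.20 (fitted -0.21, adjusted p = 0.348). Its probe was dim, and the fitted ratio was -0.58 with the scanner's log ratios and -0.32 with offset 16, still not called. Wipi2 had -0.30, -0.59, 0.11 and -0.39 (adjusted p = 0.373) by its brighter probe and a fitted -0.024 by the other. Ratios close to 0 were found for the E2-like enzyme gene Atg3 (fitted -0.0047), the protease gene Atg4b (-0.0020) and the ATG12 partners Atg5 (0.087) and Atg16l1 (0.010). The 8 genes of conjugation and membrane reading had a median of -0.11.

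The ATG8 family, whose lipid-bound proteins coat the autophagosome, did not move as a unit. Gabarap had signals of 12.38, 12.33, 12.48 and 12.43 in R/R, against 12.13, 12.05, 12.14 and 12.13 in the WT pool. The groups did not overlap, and the ratios of 0.25, 0.27, 0.34 and 0.30 were among the most even of the set. The fitted ratio was 0.29 ± 0.09 (1.23-fold, adjusted p = 0.217), and a second Gabarap probe gave 0.25. Gabarapl1 pointed the other way in the clones, at -0.12, -0.69, -0.33 and 0.0013, while Gabarapl2 was fitted at 0.053. Of the LC3 genes, Map1lc3b, whose product is the usual autophagosome marker, had -0.08, 0.06, -0.0020 and -0.42. The pool array alone, the only one with swapped dyes, lay clearly below 0. The fitted ratio was -0.21 (adjusted p = 0.337), or -0.0066 with the clones alone. Map1lc3a was fitted at -0.057.

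Sqstm1, which encodes the cargo receptor p62, had 0.38, -0.15, 0.86 and 0.18. The clones took both signs, and the fitted ratio of 0.27 ± 0.20 was not called (adjusted p = 0.544). The 6 genes of the ATG8 family and p62 had a median of -0.0022. These are transcript levels, which do not measure autophagic flux.

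The MiT/TFE genes showed no called difference. Tfeb had -0.31, -0.33, 0.34 and -0.37, so clone 3 opposed the other arrays, and the fitted ratio was -0.23 ± 0.16 (adjusted p = 0.514). Tfe3 was fitted at -3.2e-05, with all 4 arrays within 0.1 of 0, and its dimmer probe gave -0.14. Mitf could not be tested: its brighter probe passed the background limit in 2 of 4 R/R and 2 of 4 WT channels. These factors are controlled largely by their location in the cell, which the arrays did not measure.

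Among lysosomal membrane genes Lamp1 was the one with the largest ratio. It encodes the most used marker protein of the lysosomal membrane. Its signals were 13.01, 13.03, 12.72 and 12.97 in R/R, against 12.39, 12.38, 12.44 and 12.43 in the WT pool. Every R/R signal was above every WT signal, with ratios of 0.62, 0.65, 0.29 and 0.54. The fitted ratio was 0.53 ± 0.11 (95% interval 0.25 to 0.81, 1.44-fold higher in R/R), above that of 98.1% of all genes, but it was not called (adjusted p = 0.139). Lamp2, its close relative, had 0.21, 0.02, 0.24 and -0.12 and a fitted ratio of 0.020. The cholesterol exporter gene Npc1 was fitted at -0.057 and Mcoln1, the calcium channel TRPML1, at 0.056. Cd63, a tetraspanin of late endosomes and lysosomes, had -0.23, -0.12, -0.54 and -0.10 (fitted -0.20, adjusted p = 0.456). Of these 5 membrane genes 3, Lamp1 included, were above 0, with a median of 0.020.

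**Figure D2:**
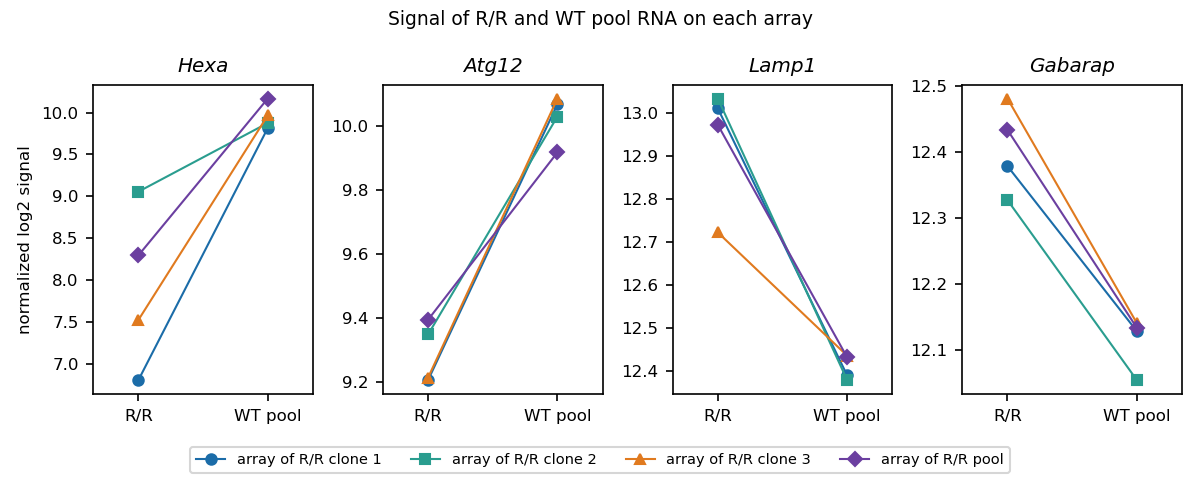
Normalized log2 signal (vertical axis, own scale in each panel) of Hexa, Atg12, Lamp1 and Gabarap in R/R RNA and in the WT pool, with a line joining the channels of each array. The R/R signals of Hexa and Atg12 lie below every WT signal, and those of Lamp1 and Gabarap lie above; the R/R signals of Hexa run from 6.81 to 9.06.

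Hexa had the largest ratio of the set and the widest spread between clones. It encodes the alpha subunit of beta-hexosaminidase, which trims GM2 ganglioside and is deficient in Tay-Sachs disease. Its signals were 6.81, 9.06, 7.53 and 8.30 in R/R, against 9.81, 9.88, 9.97 and 10.17 in the WT pool. Every R/R signal was below every WT signal, but the ratios ran from -3.01 in clone 1 through -2.44 in clone 3 and -1.87 in the pool to -0.82 in clone 2. The fitted ratio was -1.98 ± 0.40 (95% interval -2.98 to -0.97, 3.94-fold lower in R/R). It was lower than that of all but 0.0549% of genes and was not called (adjusted p = 0.133). Its clone SD of 1.13 exceeded that of 99.4% of all genes. Leaving out clone 2 turned this into a call (-2.30, adjusted p = 0.029), and the gene was also called with clones 1 and 2 averaged as 1 sample (-2.02, adjusted p = 0.014). Over all alternatives the fitted ratio ran from -2.36 to -1.75 and the adjusted p from 0.014 to 0.331.

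The 4 other glycosidase genes among the members had fitted ratios below 0, and none was called. Neu1, the sialidase, had 0.05, -0.42, -0.63 and -0.61, with clone 1 at the WT level and the other arrays below it (fitted -0.47 ± 0.15, adjusted p = 0.234). Glb1, the beta-galactosidase, had -0.10, -0.12, -0.29 and -0.34, below WT on every array (fitted -0.26 ± 0.09, adjusted p = 0.280). Gaa, the acid alpha-glucosidase that degrades glycogen, had 0.41, -0.29, -1.37 and -0.43. Its clones spanned both signs (fitted -0.42 ± 0.32, adjusted p = 0.565), and a second, dim Gaa probe gave 0.11, a gap of 0.53 between probes. Gla, the alpha-galactosidase, likewise took both signs, at 0.16, 0.64, -0.45 and -0.48. The Gla probe was the brightest of all member probes, at 15.69 to 16.35 in R/R and 15.72 to 16.29 in WT, and whether it measures Gla alone was not tested.

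The cathepsin genes gave no common direction. Ctsb, a cysteine protease, had 0.55, 0.12, 0.13 and 0.13, with all R/R signals above the WT signals, but its fitted ratio of 0.20 was not called (adjusted p = 0.475). Ctsa, the carboxypeptidase that shields NEU1 and beta-galactosidase, had -0.06, -0.43, -0.28 and -0.18 (fitted -0.22, adjusted p = 0.404). The aspartic protease gene Ctsd was fitted at -0.013 and Ctsz at -0.0054, and each took both signs. The Ctsl probe passed the background limit in 0 of 4 R/R and 0 of 4 WT channels and was not tested.

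Of the other luminal proteins, Npc2, which hands cholesterol to NPC1, had 0.08, -0.65, -0.06 and -0.36 (fitted -0.29, adjusted p = 0.444). Grn, the progranulin gene, had 0.08, 0.28, -0.85 and -0.26, with clone 3 far below the rest. Psap, the precursor of the saposin activators, was fitted at 0.12. Counted together, 10 of 12 tested luminal genes had a fitted ratio below 0, with a median of -0.21, and none was called. Over all genes, 10740 of 20045 were below 0. The 10 include Ctsd (-0.013) and Ctsz (-0.0054), both close to 0, and Gla, which was at 0.115 with the clones alone.

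The machinery and the lysosomal genes were set side by side without a test of their own. The 20 machinery genes had a median fitted ratio of -0.04, with 7 above 0, and the 17 tested lysosomal genes had -0.18, with 5 above 0. Over all genes, 9305 of 20045 were above 0. Per array, the machinery median was -0.07, -0.03, -0.0029 and -0.08, and the lysosomal median was 0.14, -0.12, -0.28 and -0.18. The lysosomal median thus changed sign between clones, with clone 1 above 0 and clone 3 lowest. Without clone 3 it was -0.038, and without clone 1 or clone 2 it was -0.19 or -0.17. Fitted without a dye term it was -0.035. An unadjusted p under 0.05 was given by 5 of 20 machinery genes (25.0%) and by 4 of 17 lysosomal genes (23.5%), beside 15.4% of all genes.

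The clones lay further apart in lysosomal genes than in machinery genes, described here without a test. The median SD over clones 1, 2 and 3 was 0.11 for the machinery genes and 0.24 for the lysosomal genes, beside 0.17 over all genes. It lay above the all-gene median for 7 of 20 machinery genes and for 13 of 17 lysosomal genes. The SD of Hexa, Gaa, Gla and Grn exceeded the 95th percentile of all genes (0.52), and no machinery gene did. Over the 39 genes the R/R signal had a median range of 0.36 across the 4 arrays, compared with 0.16 for the WT pool, which was the same RNA on every array.

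**Figure D3:**
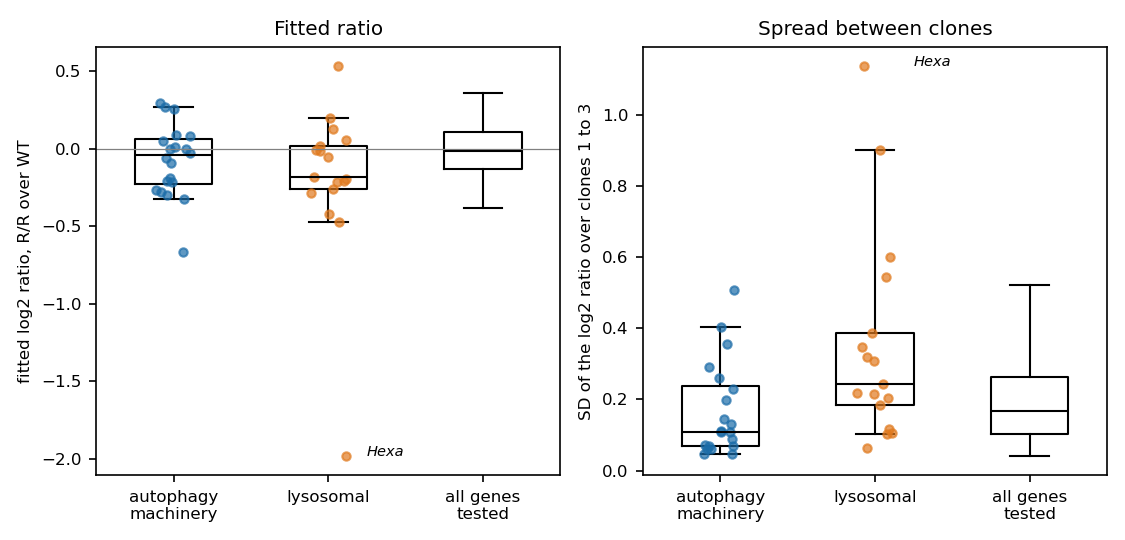
Left, fitted log2 ratio of R/R over WT, and right, SD of the log2 ratio over clones 1 to 3, for 20 autophagy machinery genes, 17 lysosomal genes and all 20045 genes tested; boxes show quartiles and median, whiskers the 5th and 95th percentiles, points single genes. The fitted medians are -0.04, -0.18 and -0.02, and the median clone SDs are 0.11, 0.24 and 0.17.

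Lysosomal genes are abundant in macrophages and granulocytes, so markers of these cells were read beside them. Of 10 macrophage and monocyte markers 6 were tested and none was called, from Itgam at -0.38 to Lyz2 at 0.11. Their median ratio was -0.03, 0.02, -0.34 and -0.09. The lysosomal median on the same arrays was 0.14, -0.12, -0.28 and -0.18. Of the 6 markers, Lyz2, Fcgr1 and Mpeg1 were well above background in R/R on only 3 of 4 arrays. The summed linear signal of the 6 markers was 17068.9 to 36173.7 in R/R and 30432.8 to 33141.6 in WT. Nearly all of it came from the brightest Itgam probe, so the sum follows that probe and not the class. The dimmer Itgam probes were fitted at 0.091 and 0.0047, and whether the bright one measures Itgam alone was not tested. Cd14, Adgre1 and Marco did not pass the filter on dim probes, and Cd68 had no named probe. Of 7 granulocyte markers Elane (-0.054) and Csf3r (-0.45) were tested and neither was called. Their summed signals were 34573 to 73145 in R/R and 54638 to 64561 in WT, nearly all from Csf3r. Mpo, Prtn3, Ctsg, S100a8 and S100a9 did not pass the filter on dim probes. Whether the bright Csf3r probe measures Csf3r alone was not tested. The part of such cells in the lysosomal ratios was not tested. In RNA from whole cultures, fewer cells of a type and less RNA per cell cannot be told apart. All 12 B-lineage markers were tested and none was called, from Rag1 at -0.32 to Cd24a at 0.67 (adjusted p = 0.094). Of 8 erythroid markers 3 were tested, and the globins Hbb-bt (-1.84) and Hbb-bh1 (-1.81) fell in R/R (adjusted p = 0.042 and 0.011). Cdk4 and Cdk6 were at 0.21 (adjusted p = 0.340) and 0.06 (adjusted p = 0.789), which does not check point mutations.

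Promoter sequences from RefSeq (GRCm38.p6) were searched for the letters that TFEB and TFE3 are known to bind. The window ran from 250 bases before to 50 after the gene start, and 35 of 41 genes had an entry. Both strands were searched for CACGTG and for TCACGTGA, which read the same on both strands, and each TCACGTGA also counts as a CACGTG. The shorter motif was found in 12 of 35 genes (34.3%), compared with 8.09% of all genes with a promoter entry. TCACGTGA was found in Atg3, Mcoln1, Ctsa, Ctsd and Gla, or 14.3%, compared with 1.12% of all genes. The longer motif is the core of the CLEAR element, which is known from lysosomal genes. The promoters of 3 genes are shown in the direction of the gene, with CACGTG in capitals: Lamp1 as the gene with the highest ratio and 4 copies, Mcoln1 as one with the longer element, and Hexa as the gene with the lowest ratio and no copy.
Lamp1, chr8:13158911-13159210, plus strand: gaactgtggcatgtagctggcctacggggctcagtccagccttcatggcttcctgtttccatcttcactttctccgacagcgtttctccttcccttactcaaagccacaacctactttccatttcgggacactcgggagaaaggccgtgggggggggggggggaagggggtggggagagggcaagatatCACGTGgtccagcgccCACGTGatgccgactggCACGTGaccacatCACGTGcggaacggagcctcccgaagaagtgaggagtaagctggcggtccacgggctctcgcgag
Mcoln1, chr8:3500269-3500568, plus strand: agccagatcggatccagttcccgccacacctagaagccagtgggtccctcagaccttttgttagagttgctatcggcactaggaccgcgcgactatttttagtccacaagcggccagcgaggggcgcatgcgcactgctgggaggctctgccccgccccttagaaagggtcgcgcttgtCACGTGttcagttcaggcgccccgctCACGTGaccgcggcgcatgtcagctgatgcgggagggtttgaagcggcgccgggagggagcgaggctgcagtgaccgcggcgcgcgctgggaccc
Hexa, chr9:59539290-59539589, plus strand: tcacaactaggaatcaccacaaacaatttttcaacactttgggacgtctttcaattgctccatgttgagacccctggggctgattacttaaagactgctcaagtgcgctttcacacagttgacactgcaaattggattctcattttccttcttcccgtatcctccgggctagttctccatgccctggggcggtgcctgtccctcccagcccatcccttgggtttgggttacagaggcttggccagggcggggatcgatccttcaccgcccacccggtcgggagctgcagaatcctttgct

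Genes with and without these letters had overlapping ranges of ratios. The 11 tested genes with CACGTG had a median fitted ratio of -0.18, from -0.42 for Gaa to 0.53 for Lamp1, with 3 above 0. The 22 tested genes with a promoter entry and no CACGTG had a median of -0.14, from -1.98 for Hexa to 0.29 for Gabarap, with 6 above 0. In Lamp1 the copies started 61, 45, 28 and 15 bases before the gene start. The other genes with CACGTG were Atg14, Atg5, Atg7, Glb1 and the untested Ctsl. A match is no evidence of binding.

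Further genes of the pathway were read from 7 lists of 158 genes in all, of which 143 were tested. One was called, Sesn2, and it was lower in R/R. Sesn2 encodes Sestrin2, a stress-induced leucine sensor that restrains mTORC1 through GATOR2. Its ratios were -0.89, -0.96, -1.16 and -1.23, and the fitted ratio was -1.12 ± 0.10 (adjusted p = 0.027). It was not called when clone 1 was left out (-1.14, adjusted p = 0.055). Median centring (-1.12, adjusted p = 0.135) and the ratios of the scanner software (-1.23, adjusted p = 0.104) ended the call too, and the adjusted p ran from 0.0018 to 0.135 over all alternatives. Of all genes 0.524% were called. An unadjusted p under 0.05 was given by 26 of 143 genes (18.2%), near the 15.4% of all genes, and 72 were above 0, with a median of 0.00016. The plot of the other autophagy and lysosome genes shows each list.

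**Figure D4:**
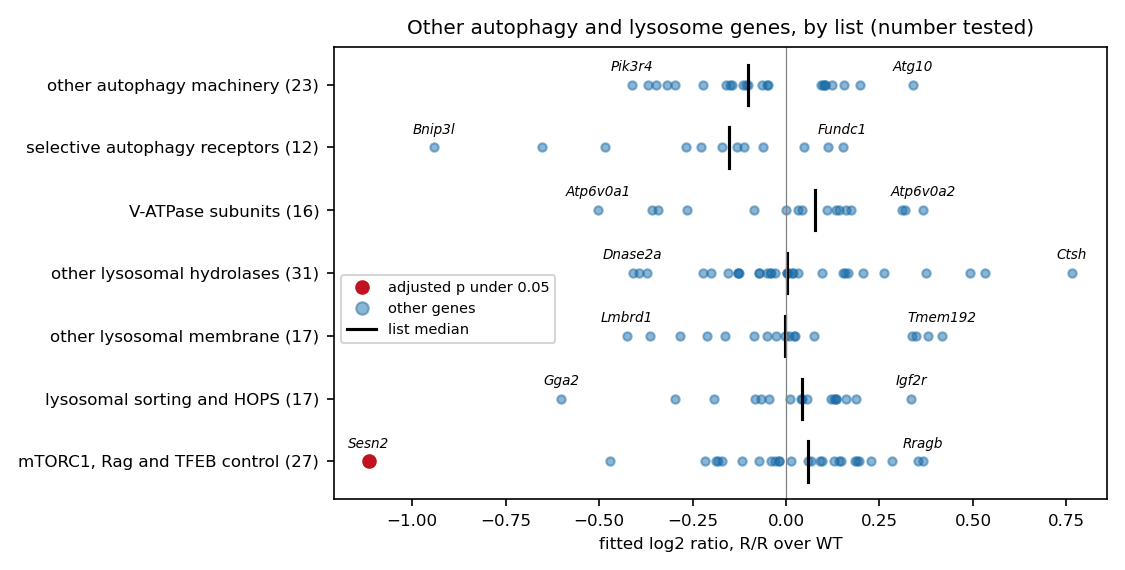
Fitted log2 ratio of R/R over WT (horizontal axis) of 143 further autophagy and lysosome genes in 7 lists, with black bars at list medians and the extreme gene of each side named where the naming rule took it. Medians run from -0.15 for selective autophagy receptors to 0.077 for V-ATPase subunits, and Sesn2, in red, is the single called gene.

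Receptors that select cargo were mostly below 0. Of 12 tested, 9 had a ratio below 0 (10740 of 20045 over all genes), the median was -0.15, and none was called. Bnip3l, also called NIX, is the receptor that clears mitochondria in maturing red cells. It had ratios of -1.38, -0.66, -1.35 and -0.75, below WT on all 4 arrays (fitted -0.94 ± 0.17, adjusted p = 0.105), and its 4 probes were fitted between -0.97 and -0.89. It was called without clone 2 (-1.06, adjusted p = 0.040), with clones 1 and 2 averaged (-0.97, adjusted p = 0.047) and with no dye term (-1.04, adjusted p = 0.011), in a range of 0.011 to 0.388. Of the erythroid markers, the globins Hbb-bt and Hbb-bh1 fell in R/R and Gata1 was not called, and 5 of 8 were not tested. Summed over the 3 tested ones, to which Hbb-bt gave most, the signal was 1960.6 to 3480.5 in R/R and 8833.8 to 9881.5 in WT. The part of erythroid cells in the Bnip3l ratio was not tested. Bnip3 was next lowest of the receptors at -0.65 ± 0.16 (adjusted p = 0.166), with -0.43, -1.20, -0.78 and -0.50 on the arrays. Its dimmer probes were fitted at -0.59 and -0.31. Ccpg1, a receptor for the endoplasmic reticulum, was at -0.48 ± 0.12 (adjusted p = 0.165) and its dimmer probe at -0.11. Fundc1, a mitochondrial receptor, was highest of this list at 0.15.

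The 23 tested further machinery genes had a median of -0.10, from Pik3r4, the VPS15 subunit of the Beclin 1 complex, at -0.41 (adjusted p = 0.185) to Atg10, the E2-like enzyme for ATG12, at 0.34 (adjusted p = 0.178). Both Atg10 probes were above 0. Among 16 subunits of the proton pump that acidifies the lysosome, 11 were above 0 (9305 of 20045 over all genes) and none was called. Atp6v0a1 was lowest at -0.50 ± 0.09 (adjusted p = 0.112), Atp6v0d1 was at -0.34 (adjusted p = 0.193), and Atp6v0a2 was highest at 0.37 (adjusted p = 0.368). Subunit a, whose isoforms place the pump in different membranes, thus held both ends of the list.

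In the 31 tested further hydrolase genes the median was 0.0013, with 16 above 0, beside -0.21 for the 12 luminal genes above. The protease gene Ctsh was highest at 0.76 ± 0.19 (adjusted p = 0.167), with ratios of 0.26, 0.80, 1.22 and 0.77. The nuclease gene Dnase2a was lowest at -0.41 (adjusted p = 0.435). Of 17 further membrane genes, Lmbrd1, which takes part in lysosomal cobalamin export, was lowest at -0.43 (adjusted p = 0.131), and Tmem192 (0.42) and Lamp3 (0.38) were highest. A dimmer Tmem192 probe was fitted at 0.15.

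Genes that sort enzymes to the lysosome had a median of 0.042 over 17 tested. Gga2, an adaptor for mannose 6-phosphate receptors, was lowest at -0.60 ± 0.11 (adjusted p = 0.107), with -0.46, -0.42, -0.78 and -0.65 on the arrays. Gnptg, a subunit of the enzyme that makes the mannose 6-phosphate tag, was at -0.30, and its dimmer probe at -0.16. Igf2r, the larger receptor for this tag, was highest at 0.33 (adjusted p = 0.324). Among 27 tested genes of mTORC1, Rag GTPase and TFEB control, Rraga was at -0.47 ± 0.11 (adjusted p = 0.160) and its close relative Rragb at 0.37 ± 0.09 (adjusted p = 0.167), or 0.96 with the scanner's log ratios. Each had 1 sign on all 4 arrays, and neither was called.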

How the data were processed

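RNA of 3 R/R clones, 1 R/R pool and 1 WT pool was measured on 4 two-colour Agilent arrays of 1 slide, from 100 ng of RNA per the labels' protocols. The deposited intensity values are, per the file headers, the uncorrected median brightness of each spot and of its surround, read with Feature Extraction 11.5.1.1. The deposited log10 values are the scanner software's own ratios (Cy5 over Cy3 after its processing, per the file headers) and served as an alternative. The deposited log2 table was not used here, since its row numbers matched no probe column.

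Background was corrected by normexp (offset 50) and ratios by loess within the array, control spots having weight 0, with limma 3.58.1 under R 4.3.3. Spots of a probe were averaged. Between 210 and 265 spots per array marked as outliers or non-uniform were left out. Symbols came from the RefSeq accession of each probe: 27656 of 55681 probes had 1 symbol and 28025 had none here. A probe was retained if either channel, R/R or WT, was well above background on 3 or more of 4 arrays (26439 probes). Taking the brightest one for each gene left 20045 genes, 12296 of them with a symbol. Probes without a symbol were grouped by systematic name. Each gene was fitted with a genotype and a dye term (2 residual degrees of freedom), two-sided, with Benjamini-Hochberg adjustment over all genes. After the main fit, the same model was run on simulated data whose spread was taken from these clones. Its outcome is not reported here and is not used as a measure of power. With 1 slide there was no batch to test.

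Gene members and lists were chosen with earlier results of these data known. Named genes are all 41 members; of each pathway list every called gene, the 2 smallest p and both extremes; of marker lists the detected extremes; and Cdk4 and Cdk6. Some genes that the rule took are left out of the text, and Bnip3 was named outside the rule, without alternative fits. Alternatives were the scanner's log ratios, offset 16, median centring, scaling, a fit without the dye term, fits on clones alone or leaving out each clone, clones 1 and 2 averaged, probes averaged, other filters on dim probes (none, or both channels on all arrays), and a threshold of 0.10. For pathway genes and kinases these were added after the data were seen.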

Additional observations from a re-analysis of the deposited data

How the results depend on the processing

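Fits that moved the number of called genes by over 1.5 times from 105 (30 higher and 75 lower in R/R) gave 46 with the scanner's log ratios (4 higher and 42 lower), 30 with median centring (2 and 28), 1140 with no dye term (490 and 650) and 310 at an adjusted p under 0.10, and 58 to 264 with a clone left out. Of the 39 autophagy and lysosome genes tested, 0 were called in the fit reported, 1 with scaling (Atg12), 1 with the clones alone (Atg12), 3 with no dye term (Atg12 at -0.73, Lamp1 at 0.53, Hexa at -2.03), 1 with clones 1 and 2 averaged (Hexa), 1 at an adjusted p under 0.10 (Atg12), and 0 to 1 with a clone left out. With no dye term the pool counts as another clone, which adds a residual degree of freedom. The cause of the other changes was not tested. The machinery median was -0.085 with median centring and 0.00091 with the clones alone.

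Sign changes over these fits were found only at reported sizes up to 0.184 (Gla), beside a median size of 0.198 over the 39 genes. With the scanner's log ratios Ulk2 was at 0.054, Atg16l1 at -0.016 and Ctsd at 0.0037. With offset 16 Tfe3 was at 0.0031. With median centring Atg3 was at 0.00012, Atg16l1 at -0.031, Ctsd at 0.011 and Ctsz at 0.023. With the mean of probes Ctsd was at 0.035. With the clones alone Atg3 was at 0.066, Atg4b at 0.13, Map1lc3a at 0.067, Tfe3 at 0.0067, Npc1 at 0.060, Mcoln1 at -0.084, Ctsd at 0.095, Ctsz at 0.22, Gla at 0.115, Psap at -0.0088 and Cdk6 at -0.0061. With no dye term Atg3 was at 0.031, Atg4b at 0.062, Map1lc3a at 0.0050, Tfe3 at 0.0033, Npc1 at 0.0014, Mcoln1 at -0.014, Ctsd at 0.041 and Ctsz at 0.108. With clones 1 and 2 averaged Ulk2 was at 0.011, Atg3 at 0.0024, Atg4b at 0.030, Tfe3 at 0.011 and Ctsz at 0.011. With a clone left out the ranges were -0.097 to 0.030 for Ulk2, -0.066 to 0.043 for Atg4b, -0.0066 to 0.023 for Atg16l1, -0.023 to 0.024 for Tfe3, -0.019 to 0.011 for Atg3, -0.031 to 0.017 for Ctsd, -0.064 to 0.085 for Ctsz and -0.00094 to 0.053 for Lamp2.

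No paired analysis was possible because each R/R clone met the same WT pool and WT has no numbered replicates. The deposited value table was not run, since its rows could not be matched to probes. A dim or near-background probe carries a ratio drawn toward 0. This limits Mitf, Ctsl, Map1lc3a, Npc1, both probes of Wipi1 and the dimmer probes of Gaa, Atg7, Ctsa and Ulk2. The tests hold no spread among WT lines, and a p that missed the threshold does not show equal levels.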
